A study of Mus musculus with 16 samples.

Results

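Levels of 6 genes for the oxygen-binding heme proteins of blood and muscle were followed in skeletal muscle of high-fat diet (HFD)-fed mice. They were the adult alpha-globin genes *Hba-a1* and *Hba-a2*, the adult beta-globin genes *Hbb-bs* and *Hbb-bt*, *Alas2*, and the myoglobin gene *Mb*. They were chosen by name, as the rows of the count table whose identifiers mapped to these symbols, and made up 6 of 55471 genes in the table. All 6 passed the filter on low counts that left 14331 genes for testing. The 16 libraries came from male mice, 10 *Npr1*+/- and 6 littermate *Npr1*+/+, all backcrossed to C57BL/6J, 12 weeks old when taken into the study and then fed a diet with 60% of its energy as lipid for 12 weeks. *Npr1*+/- mice carried 1 copy of the germline allele *Npr1*tm1Gar, so the loss was not limited to muscle. The labels give tissue as skeletal muscle without naming the muscle, and put the mice in 4 cages (675 to 678). Body weight ran from 36.5 to 48.1 g in *Npr1*+/- and from 40.5 to 54.0 g in *Npr1*+/+ mice.

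Hemoglobin in red cells is built from alpha and beta chains, each of which holds a heme. Red cell precursors make the globin mRNAs in bulk, then lose their nucleus, and reticulocytes and young red cells still carry some of that mRNA into blood vessels of every tissue. *Alas2* encodes the erythroid form of 5-aminolevulinate synthase, which catalyzes the first step of heme synthesis in red cell precursors, whereas other cells use the product of *Alas1*. Myoglobin is the single-chain oxygen store of the muscle fiber itself and is most abundant in oxidative fibers and heart. C57BL/6 mice carry the single haplotype of the beta-globin locus, whose adult genes are *Hbb-bs* and *Hbb-bt*.

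Each library held 15273472 to 59682677 counted fragments, with *Npr1*+/- replicate 5 the deepest and the next *Npr1*+/- library at 23819345. The targeted gene, *Npr1*, did not separate the labels, with a median in the libraries labelled *Npr1*+/- of 12.0 CPM (counts per 1000000 fragments of scaled library size; range, 9.83 to 22.2) against 12.4 CPM (10.4 to 13.4) in those labelled *Npr1*+/+ (log2 fold change, 0.090 ± 0.20). The library labelled *Npr1*+/+ replicate 3 went against its label at *Rps3a3*, a gene whose level separated the other libraries: it had 30.4 CPM, among the *Npr1*+/- libraries at 22.8 to 61.5 CPM and far above the other *Npr1*+/+ libraries at 0.111 to 0.704 CPM. Genotype is therefore used as labelled throughout, and the genotype and body weight estimates are also given without that library. Muscle markers were abundant in every library, with the actin gene *Acta1* at 16949 to 43709 CPM and the creatine kinase gene *Ckm* at 17779 to 36076 CPM. No gene of the mitochondrial chromosome had a count.

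The alpha-globin and the beta-globin genes each form a pair of near copies. The sequences upstream of their starts are shown because globins and *Alas2* varied together across libraries, as given further on, and *Mb* did not vary with all of them. Whether these patterns have to do with the sequences was not tested. All are the 250 bases before the RefSeq start in the build GRCm38.p6, 5′ to 3′, and capitals mark matches on either strand to 4 motifs. The first is the GATA motif, searched as AGATAA and with T for its first letter, G for its last letter, or both. The second is the CACCC-type box, searched as CCNCNCCC. The third is the CCAAT box, searched as named. The last is the TATA motif, searched as TATAAA and, in a shifted form, as ATAAAA. Motifs of the GATA type are bound by GATA factors and CACCC-type boxes by Krüppel-like factors.
*Hba-a1*, chr11:32283422-32283671, plus strand: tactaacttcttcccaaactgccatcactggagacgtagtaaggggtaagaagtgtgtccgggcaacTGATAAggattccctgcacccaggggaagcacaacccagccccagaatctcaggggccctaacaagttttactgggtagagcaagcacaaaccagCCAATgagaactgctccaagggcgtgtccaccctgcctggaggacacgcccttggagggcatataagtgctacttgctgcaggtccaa
*Hbb-bs*, chr7:103827929-103828178, minus strand: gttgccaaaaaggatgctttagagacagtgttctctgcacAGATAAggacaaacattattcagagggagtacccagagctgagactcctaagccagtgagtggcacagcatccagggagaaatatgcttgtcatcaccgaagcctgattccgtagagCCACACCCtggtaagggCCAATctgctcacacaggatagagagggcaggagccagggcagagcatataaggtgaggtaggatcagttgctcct
*Hbb-bt*, chr7:103813924-103814173, minus strand: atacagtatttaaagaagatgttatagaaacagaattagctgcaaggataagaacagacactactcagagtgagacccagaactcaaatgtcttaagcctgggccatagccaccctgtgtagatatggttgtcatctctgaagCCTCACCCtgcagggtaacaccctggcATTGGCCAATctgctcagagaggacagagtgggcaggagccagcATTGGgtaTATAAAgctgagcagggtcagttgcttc
*Alas2*, chrX:150547167-150547416, plus strand: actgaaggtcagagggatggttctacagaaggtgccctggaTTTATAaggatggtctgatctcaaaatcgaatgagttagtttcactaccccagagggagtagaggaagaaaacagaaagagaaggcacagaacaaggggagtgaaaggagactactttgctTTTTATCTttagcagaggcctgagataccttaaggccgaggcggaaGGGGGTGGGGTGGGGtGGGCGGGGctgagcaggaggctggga
*Mb*, chr15:77022788-77023037, minus strand, the second of 3 RefSeq starts: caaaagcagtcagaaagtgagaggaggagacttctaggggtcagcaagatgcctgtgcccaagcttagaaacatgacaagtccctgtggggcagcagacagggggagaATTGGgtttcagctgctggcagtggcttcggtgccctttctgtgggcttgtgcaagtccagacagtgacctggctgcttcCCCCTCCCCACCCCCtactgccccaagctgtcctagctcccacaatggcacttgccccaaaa

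A GATA match was present in 1 copy upstream of *Hba-a1* (position -183 from the start), *Hbb-bs* (-210) and *Alas2* (-86, reverse strand, where it overlaps a TATA match), and no window of *Hbb-bt* or *Mb* held these letters. *Hba-a2* had it at -186, in a window identical to that of *Hba-a1* over all 247 aligned bases. The beta-globin windows were identical at 178 of 243 aligned bases (73.3%). The CACCC-type box was present at -93 in *Hbb-bs*, at -107 in *Hbb-bt*, at 4 positions from -42 to -26 in *Alas2* and at 3 overlapping positions in *Mb*. CCAAT stood at -88 in *Hba-a1*, -91 in *Hba-a2*, -76 in *Hbb-bs*, at -80, -75 and -36 in *Hbb-bt* and at -142 in the printed *Mb* window, and was not found in that of *Alas2*. Among 32851 RefSeq promoter windows of 250 bases, 26.5% held a GATA match, 45.9% a CACCC-type box, 33.8% CCAAT and 22.8% TATA, so each is common. A match to MEF2, found in 2.92% of windows, was absent from all of those of the 6 genes, and the E-box CANNTG (66.2% of windows) was not capitalized. The counted GENCODE models of the 4 globin genes and *Alas2* start further upstream than RefSeq and reach into the windows, and the *Mb* window lies inside its counted gene model.

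In the count table, *Hba-a1* (ENSMUSG00000069919) lay at chr11:32283511-32284438 and *Hba-a2* (ENSMUSG00000069917) at chr11:32296489-32297255, both on the plus strand. *Hbb-bs* (ENSMUSG00000052305) lay at chr7:103826534-103828096 and *Hbb-bt* (ENSMUSG00000073940) at chr7:103812524-103813996, both on the minus strand. *Alas2* (ENSMUSG00000025270) lay at chrX:150547375-150570638 on the plus strand and overlapped rows of *Apex2* and *Mir3620*. *Mb* (ENSMUSG00000018893) lay at chr15:77015487-77050670 on the minus strand and overlapped *Apol6* and *Gm49540*. The counts cover the exons of each gene, in the build GRCm38.

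Reads of 52 bases cannot always tell the copies apart. Of the 52-base windows in the transcripts of *Hba-a2*, 546 of 614 (88.9%) also occurred in *Hba-a1*, and only 68 were its own. *Hba-a1* had 213 of 759 windows of its own. *Hbb-bs* shared 379 of 714 windows (53.1%) with *Hbb-bt*, and *Hbb-bt* shared the same 379 of 652 (58.1%). How fragments matching both copies were counted is not given in the sources used here. The split between *Hba-a1* and *Hba-a2*, and between *Hbb-bs* and *Hbb-bt*, is therefore uncertain. Shared windows were a larger part of the alpha-globin windows (71.9 and 88.9%) than of the beta-globin windows (53.1 and 58.1%). The level of beta-globin relative to alpha-globin is thus uncertain too. *Alas2* shared 11.3% of its windows, mostly with *Apex2*, and *Mb* 24.7%, mostly with *Gm49540*.

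As counted, *Mb* was by far the most abundant of the 6 genes and *Hbb-bs* the most abundant globin. On the scale of CPM per kilobase of exon, the mean over the 16 libraries was 5175 ± 1657 (SD, n = 16) for *Mb*, 283 ± 123 for *Hbb-bs*, 29.4 ± 10.9 for *Hba-a1*, 18.9 ± 8.78 for *Hbb-bt*, 6.07 ± 2.26 for *Hba-a2* and 4.69 ± 1.76 for *Alas2*. *Mb* ranked 12 and *Hbb-bs* 138 in level per kilobase among all genes tested, and *Alas2* 5258. The ranges of *Mb*, *Hbb-bs* and *Hba-a1* did not overlap one another. *Hba-a1* (14.3 to 55.9) overlapped *Hbb-bt* (6.08 to 34.9), *Hbb-bt* overlapped *Hba-a2* (3.72 to 12.0), and *Hba-a2* overlapped *Alas2* (1.82 to 7.55). The 4 globin rows together took 0.00825 to 0.0430% of the counted fragments (median, 0.0242%), that is 1837 to 10239 fragments, and *Mb* alone took 0.406 to 1.27%.

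As counted, beta-globin fragments outnumbered alpha-globin fragments in every library. Per kilobase, the beta to alpha ratio had a median of 8.28. It ran from 4.94 in *Npr1*+/- replicate 7 to 16.3 in *Npr1*+/- replicate 9, and the next highest library had 10.8. The shared windows above bear on the size of this ratio, since how their fragments were counted is not known. *Hbb-bs* was 9.63 to 23.0 times as high as *Hbb-bt* and *Hba-a1* 3.56 to 6.54 times as high as *Hba-a2*, subject to the shared windows above. *Hbb-bs* was 42.5 to 81.9 times as high as *Alas2*, a narrower span than the 6.75-fold range of *Hbb-bs* itself. The ratio of *Mb* to beta-globin ran from 9.13 to 33.2.

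All 6 genes varied between mice of the same label, and had a larger SD of log2 CPM among the *Npr1*+/- than among the *Npr1*+/+ libraries, as did 80.3% of all genes tested. *Hba-a1* had 11.6, 23.9 and 45.4 CPM as its lowest, median and highest value in *Npr1*+/- libraries and 13.03, 21.8 and 28.7 CPM in *Npr1*+/+ libraries. *Hba-a2* had 2.60, 4.15 and 7.97 CPM against 2.48, 3.12 and 5.13 CPM, from only 44 to 158 fragments per library. For both alpha-globin genes, *Npr1*+/- replicates 1 and 10 were the highest libraries, and the groups overlapped.

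*Hbb-bs* had 65.0, 205 and 438 CPM as its lowest, median and highest value in *Npr1*+/- and 160, 191 and 258 CPM in *Npr1*+/+ libraries. *Hbb-bt* had 4.28, 13.9 and 24.6 CPM against 6.47, 10.3 and 16.9 CPM. In both beta-globin genes the *Npr1*+/- libraries reached below and above all *Npr1*+/+ libraries, with replicate 7 the lowest and replicate 9 the highest. For *Hbb-bs*, 3 *Npr1*+/- libraries lay below the lowest and 3 above the highest *Npr1*+/+ library.

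*Alas2* had 4.37, 11.8 and 18.1 CPM in *Npr1*+/- and 6.23, 11.2 and 13.9 CPM in *Npr1*+/+ libraries, with *Npr1*+/- replicate 7 lowest and replicate 8 highest. *Mb* had 4112, 7495 and 14540 CPM in *Npr1*+/- and 5968, 7789 and 11174 CPM in *Npr1*+/+ libraries. *Npr1*+/- replicates 6 and 7 were the lowest for *Mb* and replicate 9 the highest. The groups overlapped for all 6 genes, as they did for all but 1 of the genes tested (0.00698% without overlap). *Npr1*+/- replicate 7 was the lowest of all 16 libraries for 5 of the 6 genes, with *Hba-a2* the exception, and came from the lightest mouse (36.5 g). The SD of log2 CPM over the 16 libraries was 0.72 for *Hbb-bt*, 0.66 for *Hbb-bs*, 0.59 for *Alas2*, 0.53 for *Hba-a1*, 0.48 for *Hba-a2* and 0.45 for *Mb*, against a median of 0.38 over all genes tested.

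**Figure D1:**
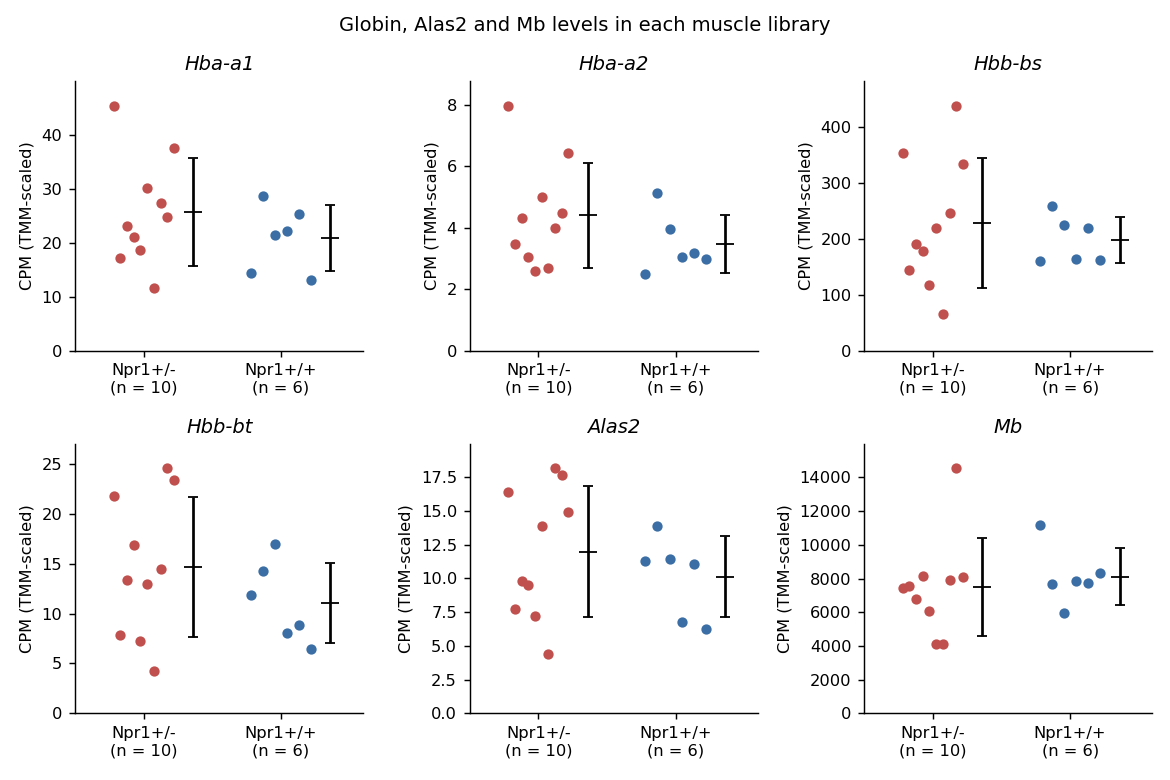
Level of each gene in CPM (TMM-scaled, linear axes from 0) in the 10 *Npr1*+/- (red) and 6 *Npr1*+/+ (blue) libraries, 1 point per mouse, with the mean and SD of each group in black. The groups overlap for all 6 genes, and *Npr1*+/- libraries extend from 65.0 to 438 CPM for *Hbb-bs* where *Npr1*+/+ libraries lie between 160 and 258 CPM.

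To ask whether partial loss of the receptor went with a change in these genes, libraries labelled *Npr1*+/- and *Npr1*+/+ were compared with cage and body weight as covariates. None of the 6 genes passed an adjusted p of 0.05 in edgeR's quasi-likelihood test. Over all genes, 0 of 14331 tested passed (0%), 151 (1.05%) had an unadjusted p under 0.05 and 78 (0.544%) were also higher, DESeq2 called 6 genes and limma-voom 0. The estimates were above 0 for the 5 blood-related genes, where 48.4% of all genes tested had an estimate above 0. Since these 5 genes varied together, as given further on, their signs are not independent. Of these, *Hbb-bt* and *Alas2* had an unadjusted p under 0.05 and an estimate of at least 0.5, a size that 378 genes tested reached (2.64%). In this bulk tissue, fewer cells of a type and less RNA per cell cannot be told apart.

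The mean of *Hbb-bt* was 14.7 ± 7.01 CPM (SD, n = 10) in *Npr1*+/- and 11.1 ± 3.999 CPM (n = 6) in *Npr1*+/+ libraries, with a log2 fold change of 0.79 ± 0.32 (SE; edgeR unadjusted p = 0.0265, adjusted p = 0.99999). *Alas2* had 12.0 ± 4.85 against 10.1 ± 2.99 CPM and a log2 fold change of 0.54 ± 0.25 (edgeR unadjusted p = 0.0450, adjusted p = 0.99999). Both estimates depended on the covariates. With cage as the only covariate they were 0.27 and 0.17, with the genotype label alone 0.40 and 0.24, and with body weight as the only covariate 0.87 and 0.65. With the *Hbb-bs* and *Hbb-bt* rows summed, the beta-globin log2 fold change was 0.36.

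*Hbb-bs* had 229 ± 116 CPM in *Npr1*+/- and 198 ± 41.4 CPM in *Npr1*+/+ libraries, with a log2 fold change of 0.34 ± 0.32. That value was 0.057 without *Npr1*+/- replicate 9 and 0.53 without *Npr1*+/+ replicate 4, and it was 0.025 with cage and 0.51 with body weight as the only covariate. *Hba-a1* had 25.7 ± 10.01 against 20.9 ± 6.09 CPM and a log2 fold change of 0.23 ± 0.21, and *Hba-a2* 4.40 ± 1.71 against 3.46 ± 0.945 CPM and 0.32 ± 0.24. The estimate for *Hba-a1* was 0.62 without *Npr1*+/+ replicate 4 and 0.12 without *Npr1*+/+ replicate 5, and that for *Hba-a2* was 0.080 without *Npr1*+/+ replicate 5. With body weight as the only covariate they were 0.52 and 0.59. With the alpha-globin rows summed the log2 fold change was 0.24.

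*Mb* had 7484 ± 2902 CPM in *Npr1*+/- and 8116 ± 1698 CPM in *Npr1*+/+ libraries. Its log2 fold change was -0.0038 ± 0.26, with an unadjusted 95% interval of -0.59 to 0.58. It was -0.21 with cage as the only covariate, -0.063 with body weight as the only covariate and -0.12 with the genotype label alone. Without the library labelled *Npr1*+/+ replicate 3, the estimates were 0.24 for *Hba-a1*, 0.33 for *Hba-a2*, 0.35 for *Hbb-bs*, 0.80 for *Hbb-bt*, 0.55 for *Alas2* and 0.0085 for *Mb*.

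Without covariates, an exact two-sided permutation test over all 8008 assignments of the labels gave p = 0.361 for *Hba-a1*, 0.248 for *Hba-a2*, 0.906 for *Hbb-bs*, 0.436 for *Hbb-bt*, 0.588 for *Alas2* and 0.474 for *Mb*. Exact permutation within cages (360 splits) gave p between 0.128 and 0.869. Within cages 675, 676, 677 and 678, the *Npr1*+/- minus *Npr1*+/+ difference in mean log2 CPM was -0.24, 1.14, -0.27 and 0.43 for *Hbb-bt*. The corresponding differences were -0.24, 0.49, -0.46 and 0.0058 for *Hbb-bs*, and -0.35, 0.019, -0.66 and -0.014 for *Mb*. Direction thus differed between cages for both beta-globin genes, each cage holding 1 or 2 *Npr1*+/+ mice. For *Hba-a1* and *Hba-a2*, the *Npr1*+/- mean was the higher in 3 of 4 cages, and for *Alas2* in 2 of 4.

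**Figure D2:**
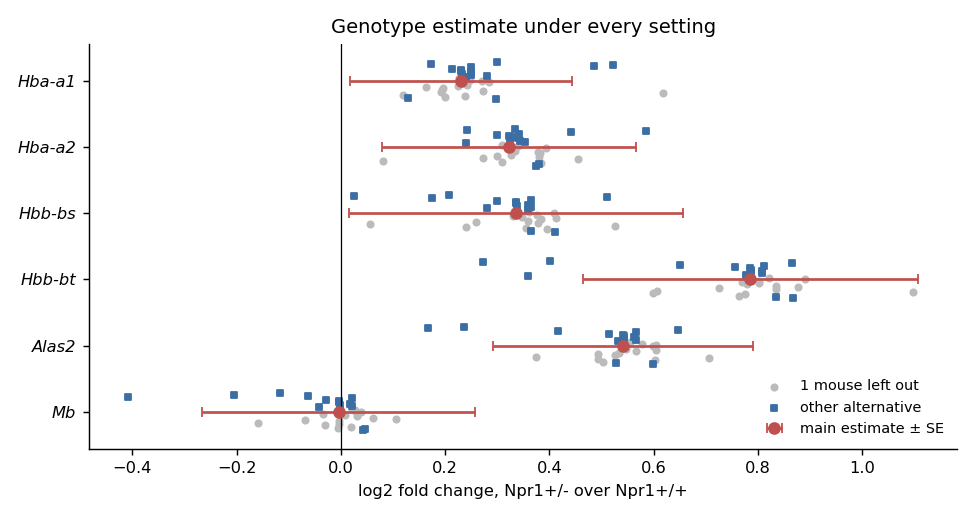
Genotype estimate (log2 fold change, *Npr1*+/- over *Npr1*+/+) of each gene. Red circles with bars give the estimate with cage and body weight as covariates ± SE, grey circles leave out 1 mouse each, and blue squares are the other alternatives. The estimates for *Mb* lie on both sides of 0, from -0.41 to 0.11, and those of the other 5 genes all lie above 0.

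Body weight was fitted together with genotype and cage. No gene of 14331 passed an adjusted p of 0.05 in edgeR (0%), 2449 (17.1%) had an unadjusted p under 0.05, 680 of them higher in heavier mice (4.74%), and DESeq2 called 26. The log2 change per gram was 0.13 ± 0.040 (SE) for *Hbb-bt* (edgeR unadjusted p = 0.00655, adjusted p = 0.245) and 0.099 ± 0.033 for *Alas2* (unadjusted p = 0.00854, adjusted p = 0.245). It was 0.086 ± 0.043 for *Hbb-bs*, 0.050 ± 0.034 for *Mb*, 0.020 ± 0.031 for *Hba-a2* and 0.017 ± 0.029 for *Hba-a1*. Without cage in the fit, the last 3 were 0.017 for *Mb*, 0.069 for *Hba-a2* and 0.072 for *Hba-a1*. With cage, all 6 were above 0, where 47.3% of all genes tested were, and 2 had an unadjusted p under 0.05. Here too the signs of the globins and *Alas2* are not independent. Without *Npr1*+/- replicate 7, from the lightest mouse, the value for *Hbb-bs* was 0.046 and that for *Hba-a1* was -0.0097. Without the library labelled *Npr1*+/+ replicate 3 the values were 0.14 for *Hbb-bt*, 0.13 for *Alas2*, 0.12 for *Hbb-bs*, 0.079 for *Mb* and 0.036 for both alpha-globin genes, and without *Npr1*+/+ replicate 5 that for *Hba-a2* was 0.0075. Without *Npr1*+/- replicate 3, *Hbb-bt* (0.17, edgeR adjusted p = 0.0198) and *Mb* (0.11, adjusted p = 0.0424) passed, in a fit in which 3158 genes passed. *Npr1*+/- mice were lighter (median, 44.3 g) than *Npr1*+/+ mice (48.0 g).

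Cage was tested jointly over its 3 terms, and 4 of 14331 genes passed an adjusted p of 0.05 (0.0279%). None of the 6 genes did, with edgeR adjusted p between 0.656 and 0.913, and only *Hba-a1* had an unadjusted p under 0.05 (0.0308, where 7.36% of genes tested had one). *Hba-a1* had a mean of 33.9 ± 9.36 CPM (SD, n = 4) in cage 676 and 15.4 ± 2.93 CPM (n = 3) in cage 677, the highest and the lowest of the 4 cages. *Hbb-bs* followed the same order, at 288 ± 65.8 CPM in cage 676 and 147 ± 25.4 CPM in cage 677, whereas *Mb* had 7793 ± 273 CPM in cage 676 and 8524 ± 2546 CPM in cage 677.

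The 4 globin genes and *Alas2* varied together from mouse to mouse. Over the 16 libraries, Pearson's r of log2 CPM was 0.71 to 0.90 and Spearman's rho 0.69 to 0.89 for the 10 pairs among them (permutation test, 100000 resamples, p adjusted over all 15 pairs computed at most 0.0033 for r and 0.0059 for rho). The highest value was that of *Hbb-bs* with *Alas2* (r = 0.90), which lie on different chromosomes and share no sequence window. Without the 2 libraries farthest from the median the 10 values of r were 0.63 to 0.83, and with values centred on their cage 0.48 to 0.86. *Hba-a1* with *Hba-a2* (0.88) and *Hbb-bs* with *Hbb-bt* (0.89) are the pairs whose fragments may be shared. Within labels, the 10 values of r were 0.75 to 0.96 in the 10 *Npr1*+/- libraries and 0.43 to 0.89 in the 6 *Npr1*+/+ libraries, with *Hba-a1* and *Hbb-bt* the lowest pair in the latter.

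Ranked against all genes tested, *Hbb-bs* was the gene most like *Alas2* and *Hbb-bt* the next. *Hba-a1* was the gene most like *Hba-a2*. Seen from *Hbb-bs*, *Alas2* ranked 2, *Hbb-bt* 5, *Hba-a1* 70 and *Hba-a2* 192, and *Mb* 2468. As a background, 20.3% of genes tested had r above 0.5 with *Hbb-bs* and 26.0% with *Mb*.

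*Mb* stood apart from the alpha-globin genes, with r = 0.084 with *Hba-a1* and 0.018 with *Hba-a2*. Its r was 0.54 with *Hbb-bs* (rho = 0.23; permutation p adjusted over the 15 pairs 0.0428 for r and 0.454 for rho), 0.45 with *Hbb-bt* and 0.40 with *Alas2*. Without centring, the relation of *Mb* with *Hbb-bs* rested on *Npr1*+/- replicates 7 and 9, and without them r was -0.040. With values centred on their cage it was instead 0.83, and the r of *Mb* was then 0.72 with *Hbb-bt*, 0.74 with *Alas2*, 0.38 with *Hba-a1* and 0.30 with *Hba-a2*. Uncentred, the r of *Mb* with *Hbb-bs* was 0.70 within *Npr1*+/- and -0.61 within *Npr1*+/+ libraries, a difference that was not tested.

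**Figure D3:**
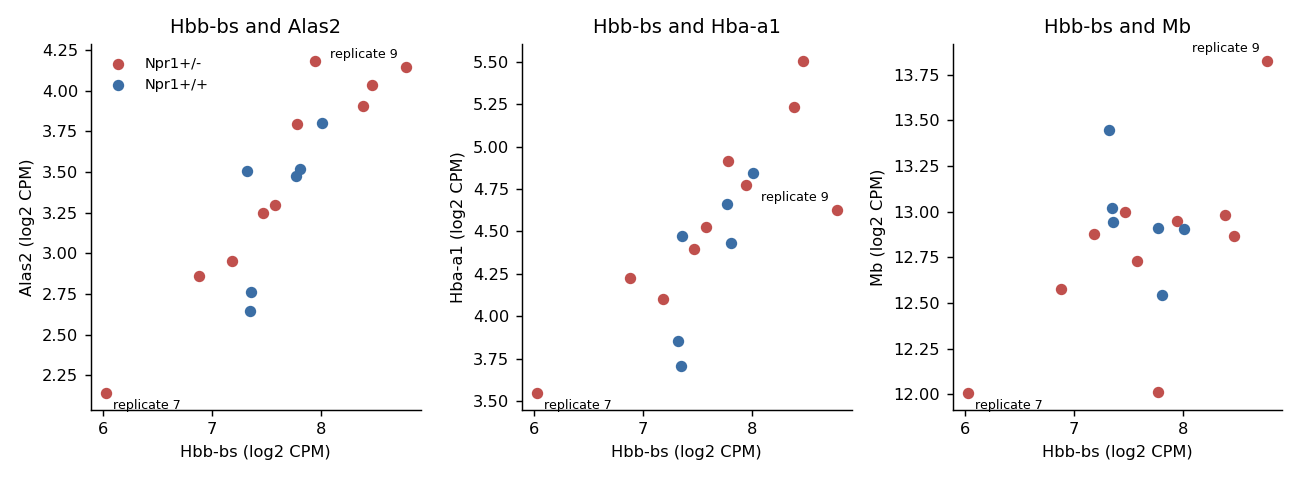
Log2 CPM of *Alas2*, *Hba-a1* and *Mb* against that of *Hbb-bs*, 1 point per library, *Npr1*+/- in red and *Npr1*+/+ in blue, with *Npr1*+/- replicates 7 and 9 named. *Alas2* follows *Hbb-bs* over the whole range (r = 0.90), and *Mb* less closely (r = 0.54 with and -0.040 without the 2 named libraries, and 0.83 with values centred on their cage).

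Libraries also differed in the balance of short and long genes, which moved with some of the 6 genes. For each library an index was taken as the median log2 deviation from the gene mean of 1648 genes with exons under 1500 bases, less that of 5741 genes over 5000 bases, leaving out the 6 genes. The index was lowest in *Npr1*+/- replicates 7 (-0.98), 6 (-0.76) and 5 (-0.54) and highest in *Npr1*+/- replicate 9 (0.76). It ran from -0.13 to 0.40 in *Npr1*+/+ libraries. *Mb*, at 1492 bases of exon, followed it closely, with r = 0.91 and rho = 0.83 (permutation p adjusted over 6 genes 6e-05 and 0.0006, the former from the smallest value the resamples can give) and r = 0.82 without the 2 libraries farthest out. *Mb* also followed it within *Npr1*+/- (r = 0.92) and *Npr1*+/+ libraries (0.88).

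*Hbb-bs*, *Hbb-bt* and *Alas2* followed the index less closely, with r of 0.73, 0.65 and 0.55 and rho of 0.54, 0.61 and 0.50 (permutation p adjusted over 6 genes 0.00516, 0.0120 and 0.0403 for r, and 0.0661, 0.0434 and 0.0731 for rho). For *Hba-a1* and *Hba-a2*, with 812 and 667 bases of exon, r was 0.38 and 0.31 and rho 0.34 and 0.28 (adjusted permutation p from 0.180 to 0.297). Within *Npr1*+/+ libraries, r with the index was below 0 for all 5 blood-related genes, at -0.65 for *Hbb-bs* and -0.16 for *Alas2*, whereas within *Npr1*+/- libraries it was 0.84 for *Hbb-bs* and 0.72 for *Alas2*.

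With the index removed from both genes of a pair by linear regression, the 10 values of r among globins and *Alas2* were 0.68 to 0.87. The 5 values of r with *Mb* were then all below 0, from -0.70 with *Hba-a1* to -0.30 with *Alas2*. With the index as a further covariate, the genotype log2 fold changes were 0.87 for *Hbb-bt*, 0.60 for *Alas2*, 0.41 for *Hbb-bs*, 0.37 for *Hba-a2*, 0.30 for *Hba-a1* and 0.042 for *Mb*, and the smallest adjusted p was 0.209 in edgeR. The values per gram of body weight were lower with it, at 0.066 for *Hbb-bt*, 0.058 for *Alas2*, 0.023 for *Hbb-bs* and 0.0012 for *Mb*. The index was defined after these data had been seen.

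**Figure D4:**
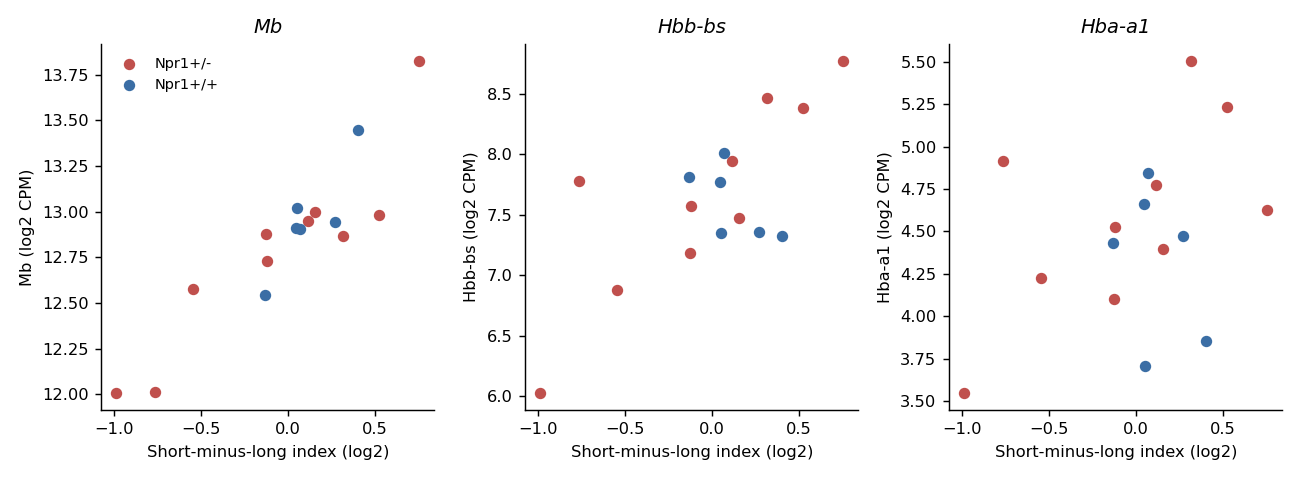
Log2 CPM of *Mb*, *Hbb-bs* and *Hba-a1* against the short-minus-long index (log2), 1 point per library, *Npr1*+/- in red and *Npr1*+/+ in blue. *Mb* follows the index in both groups (r = 0.91), *Hbb-bs* less so (0.73) and *Hba-a1* least (0.38).

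**Figure D5:**
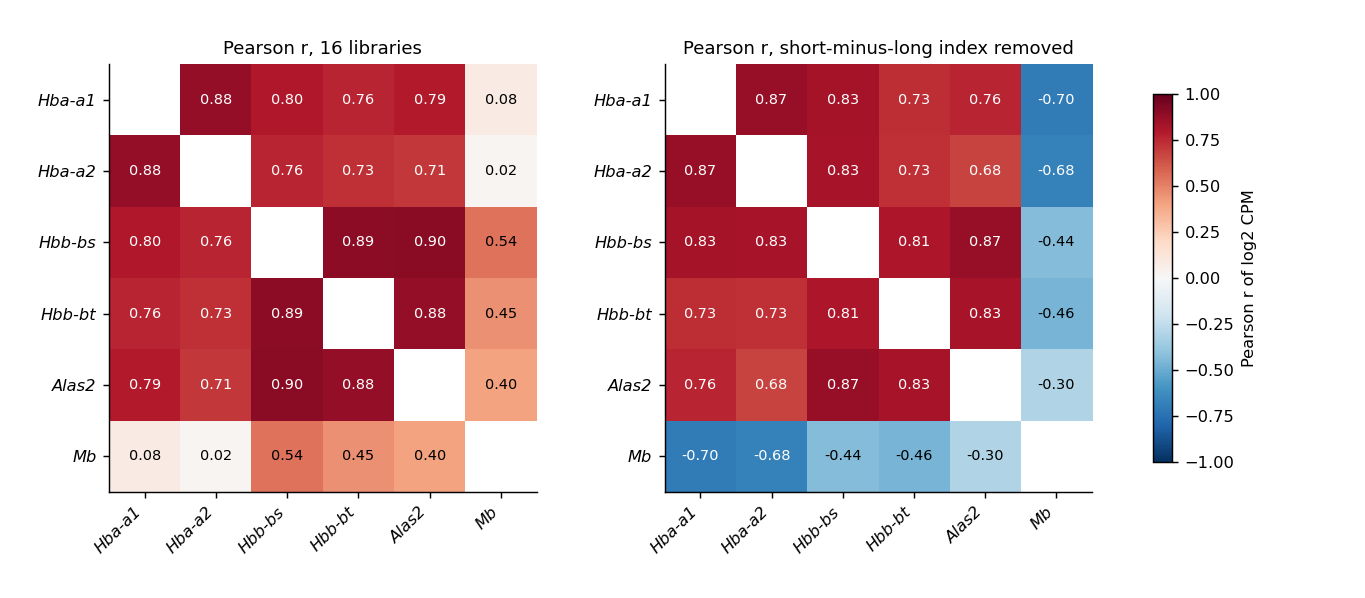
Pearson's r of log2 CPM for the 15 pairs over 16 libraries (left) and after the short-minus-long index was removed from both genes (right), on a color scale from -1 (blue) to 1 (red). The 10 pairs among globins and *Alas2* stay between 0.68 and 0.87 on the right, while the 5 pairs with *Mb* fall below 0.

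Genes whose pattern was among those most like that of *Hbb-bs*, leaving out the 6 genes, were *Glipr2* (r = 0.92, rho = 0.88, n = 16 libraries), *S100a10* (0.90 and 0.79), *Medag* (0.90 and 0.84), *Lyz1* (0.87 and 0.77), *Tuba1c* (0.87 and 0.85), *Adgre1* (0.87 and 0.76) and *AI467606* (0.87 and 0.82). *Adgre1* encodes the macrophage surface protein F4/80 and *Lyz1* a lysozyme. Their levels were low, with means from 2.02 CPM for *AI467606* to 34.7 CPM for *S100a10*. Those most like *Mb* were *Atp5g1* (r = 0.99, rho = 0.92), *Prdx5* (0.98 and 0.83), *S100a1* (0.98 and 0.91), *Ndufa11* (0.98 and 0.81), *Sdhd* (0.97 and 0.87), *Dnpep* (0.97 and 0.84), *Slc25a4* (0.97 and 0.89) and *Iqcg* (0.97 and 0.77). Of these, *Atp5g1*, *Ndufa11* and *Sdhd* encode subunits of respiratory complexes, *Slc25a4* the mitochondrial adenine nucleotide carrier and *Prdx5* a peroxiredoxin. The short-minus-long index, which *Mb* followed at r = 0.91 and *Hbb-bs* at 0.73, was not removed from any of these values. None of these 15 genes passed the genotype or weight test (edgeR adjusted p of at least 0.279).

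The defining markers of red cells given here, other than the globins, were at or near 0. *Slc4a1*, the anion exchanger of the red cell membrane, had 1 to 19 fragments per library and at most 0.945 CPM. *Epb42* and *Rhag* had at most 0.146 CPM, each with libraries at 0. Of the erythroblast markers, *Gata1*, *Klf1* and *Hemgn* had at most 0.315 CPM, each with libraries at 0, and *Tal1*, which endothelium also expresses, had 2.05 to 4.09 CPM. The globin genes *Hba-x*, *Hbb-bh1*, *Hbb-bh2* and *Hbb-y*, the embryonic ones among them, had no fragment in any library. *Cygb*, the cytoglobin gene of fibroblast-like cells, had 12.7 to 23.996 CPM and a genotype log2 fold change of -0.00094 ± 0.18.

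Of 30 listed red cell membrane and late erythroid genes, 29 were matched in the table. Their summed level was 1003 to 1457 CPM in *Npr1*+/- and 1064 to 1187 CPM in *Npr1*+/+ libraries. This sum included genes that muscle also expresses, such as *Sptb* at 31.8 to 461 CPM. The part of red cell content in the globin values was not tested. Of these genes, 16 were tested and 0 passed the adjusted test for genotype, weight or cage. No tested member had an unadjusted genotype p under 0.05, 10 had an estimate above 0, and the median log2 fold change was 0.062 against -0.0060 over all genes tested. The smallest genotype p-values in it were those of *Car1*, a red cell carbonic anhydrase (log2 fold change, 0.38 ± 0.39), *Tspan33* (-0.18 ± 0.21), the spectrin gene *Sptb* (0.34 ± 0.45) and the mitochondrial iron importer gene *Slc25a37* (0.14 ± 0.19). All 12 other heme synthesis genes were tested, and 4 had an estimate above 0 and none an unadjusted p under 0.05. *Alas1*, the general form of the enzyme, had 130 to 286 CPM, with a log2 fold change of -0.22 ± 0.19. *Cpox*, *Alad* and *Uros*, which catalyze later steps, had -0.14 ± 0.18, -0.13 ± 0.19 and -0.10 ± 0.19.

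Of 13 tested genes of heme and iron handling, 3 had an estimate above 0 and none an unadjusted p under 0.05. The haptoglobin gene *Hp*, whose product binds free hemoglobin, had -0.64 ± 0.49, and *Cd163*, the macrophage receptor for that complex, 0.29 ± 0.24. Of the lists for other blood cells, 3 of 9 platelet genes, 1 of 10 neutrophil genes and 2 of 10 lymphocyte genes were tested, and 4 of 10 nuclear erythroblast genes. In these lists only the B cell receptor component gene *Cd79a* had an unadjusted genotype p under 0.05 (-1.18 ± 0.34 on the log2 scale, from at most 0.974 CPM). All 10 endothelial genes were tested, and 9 had an estimate above 0, led by *Vwf* (0.63 ± 0.46), with none at an unadjusted p under 0.05.

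For the surroundings of *Mb*, 15 slow and oxidative fiber genes were tested, and 3 had an unadjusted genotype p under 0.05 (1.05% of all genes tested had one), all lower in *Npr1*+/- libraries. They were the muscle LIM protein gene *Csrp3* (-0.87 ± 0.19), the calsequestrin gene *Casq2* (-0.95 ± 0.25) and *Fhl1* (-0.41 ± 0.17). None passed the adjusted test in edgeR (adjusted p = 0.99999). The list was chosen with earlier results of these data known, so its share cannot serve as a test against that of all genes. Of the 15 genes, 6 had an estimate above 0 and 9 below, and the list's median was -0.13. Of 15 fast glycolytic fiber genes, 2 had an estimate above 0 and none an unadjusted p under 0.05, with a median of -0.090. Of 16 regulators of myoglobin expression (calcineurin, NFAT, MEF2 and PGC-1 family genes among them), 10 had an estimate above 0, and of 12 hypoxia response genes 4 did, again with none at an unadjusted p under 0.05. The smallest p-values in these were those of *Ppargc1b* (0.40 ± 0.39), *Nfatc1* (0.24 ± 0.30), *Ddit4* (0.52 ± 0.32) and *Adm* (0.17 ± 0.19). Of *Myh6*, *Nppa* and *Tnni3*, genes of heart muscle, at most 7.10 CPM was present.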

How the data were processed

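Poly-A RNA libraries from 16 muscles (the labels name the Universal Plus mRNA-seq kit, the study's methods a TruSeq stranded one) were sequenced as 52-base pairs. The authors aligned reads to GRCm38 with STAR 2.7.2b and counted fragments with both ends aligned per GENCODE M24 gene. Per the labels' processing notes the counter was featureCounts 1.6.4. The deposited values are raw counts. Strand setting and treatment of multiply matching fragments are not given in the sources used here.

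Counts were filtered (filterByExpr by genotype), scaled by TMM and tested with edgeR 4.0.16 (quasi-likelihood, robust) under R 4.3.3, with genotype, cage and body weight as terms, over 14331 genes with Benjamini-Hochberg adjustment at 0.05. SE is the log2 fold change over the square root of F. Log2 CPM used a prior count of 1. DESeq2 1.42.0 and limma 3.58.1 were alternatives. Tests were exact permutations (SciPy 1.17.1) for single genes. Scripts were tested on simulated data. Symbols matched 55144 of 55471 identifiers. Shared windows came from GENCODE M21 transcripts, promoters from RefSeq (GRCm38.p6). No 2 libraries of a label agreed within sampling noise (chi-square per degree of freedom at least 11.9). The labels do not say more on how replicates were taken than that each is a mouse with its own weight and cage.

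Genes named in the text are the 6 members, *Npr1*, fixed markers of muscle, heart and blood cell types, other globin genes, genes of fixed lists that passed an adjusted test or else up to 4 per list with the smallest unadjusted genotype p, and the 8 genes most like *Hbb-bs* and *Mb*, of which some are not reported here. *Rps3a3* was named after its values had been seen. The members and lists were chosen with earlier results of these data known. Replicate numbers were checked as pairs: residual correlations of the 6 same-numbered pairs were 0.031 to 0.16 (mean, 0.072), so they were not treated as pairs.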

Additional observations from a re-analysis of the deposited data

How the results depend on the processing

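When replicate numbers replaced cage as a block, 2 genes passed for genotype and 1 for body weight, the 6 genes had genotype log2 fold changes of 0.49 (*Hba-a1*), 0.44 (*Hba-a2*), 0.18 (*Hbb-bs*), 0.65 (*Hbb-bt*), 0.42 (*Alas2*) and -0.41 (*Mb*), none passing, and *Mb* per gram turned to -0.030. The genotype count was 8 with no filter on low counts, 6 with DESeq2, 1 without *Npr1*+/- replicate 5 and *Npr1*+/+ replicate 3 together, and 0 to 3 with each mouse left out in turn (3 without *Npr1*+/+ replicate 3). The body weight count was 333 without the genotype label, 26 with DESeq2 and 0 to 3158 with each mouse left out (3158 without *Npr1*+/- replicate 3). The cage count was 0 with library size only, 23 with no filter, 1 with at least 10 counts in every library, 0 without *Npr1*+/- replicate 5 and *Npr1*+/+ replicate 3, 8 with the short-minus-long index as a covariate and 0 to 869 with each mouse left out (869 without *Npr1*+/- replicate 3). The cause of these moves was not tested.

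The genotype estimate of *Mb* (-0.0038) was -0.21 with cage as the only covariate and changed sign to 0.021 with RLE size factors and with DESeq2, 0.017 with no filter, 0.046 without *Npr1*+/- replicate 5 and *Npr1*+/+ replicate 3 and 0.042 with the index, and ran from -0.16 to 0.11 with each mouse left out. The genotype estimates of the other 5 genes kept their sign under every alternative run. Per gram of body weight, *Hba-a1* turned to -0.0090 and *Hba-a2* to -0.0065 with the index, and *Hba-a2* to -0.0013 without the genotype label. With each mouse left out the values per gram ran from -0.0097 to 0.055 (*Hba-a1*), 0.096 to 0.17 (*Hbb-bt*) and 0.023 to 0.11 (*Mb*). The difference in mean log2 CPM of *Hbb-bs* was -0.041 with library size only. The r of *Hbb-bs* with *Mb* was -0.040 without the 2 libraries farthest out and -0.44 with the index removed. The r of *Mb* with the other 5 genes was 0.30 to 0.83 with values centred on their cage. The alternatives with the index, those leaving out *Npr1*+/- replicate 5 and *Npr1*+/+ replicate 3 together, those for the cage count, and for body weight the replicate block and the other settings tried beside those planned were chosen after seeing the data. The precision is limited by 6 *Npr1*+/+ mice and, for *Hba-a2*, by 44 to 158 fragments per library.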
